A study of Mus musculus with 35 samples.

Results

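The miR-106b-25 cluster and miR-32 were followed in mouse liver after a single exposure to N-ethyl-N-nitrosourea (ENU), an alkylating agent that ethylates DNA bases. The 4 members, mmu-miR-106b, mmu-miR-93, mmu-miR-25 and mmu-miR-32, were chosen by name among the 376 miRNAs of the PCR array, with earlier results of these data known: the first 3 come from one genomic cluster, and miR-32 shares its seed with miR-25. All mice were 6-month-old female Big Blue mice, a transgenic strain that carries a bacterial reporter gene for mutation assays, and all groups, controls included, carried it. They received 1 intraperitoneal dose of 120 mg/kg ENU in dimethylsulfoxide (DMSO) or DMSO alone. ENU groups were sampled on post-treatment day (PTD) 1, 3, 7 and 15, with 5 mice each, and on PTD 30 and 120, with 4 mice each. The 7 DMSO controls, 3 labelled day 1 and 4 labelled day 30, formed a common control group for all ENU groups. Small RNA of each liver was measured on 1 array of 384 wells, so that the p-values below rest on the spread between mice. The level of a miRNA is given as -ΔCt, the mean threshold cycle (Ct) of the 4 reference RNAs snoRNA251, snoRNA202, snoRNA142 and U6 minus the Ct of the miRNA, on a log2 scale where a higher value means more RNA.

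A mature miRNA guides the silencing machinery to messenger RNAs that pair with its seed, a short stretch near the 5′ end, so that miRNAs with the same seed share many targets. The miR-106b-25 cluster lies within Mcm7, which encodes a subunit of the helicase that opens DNA for replication, and it is a paralog of the miR-17-92 and miR-106a-363 clusters. E2F factors, which drive entry into S phase, activate Mcm7, and miRNAs of these clusters are known to target cell cycle inhibitors such as p21 and the apoptosis inducer Bim. The reference gene table places miR-32 within Tmem245, a gene for a membrane protein.

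The mature sequences of the 4 members, and of miR-17 and miR-92a as close relatives of each seed family on the array, are shown from RefSeq (GRCm38.p6), 5′ to 3′, with the seed (bases 2 to 8) in capitals. The array names give no arm for these assays, so the arm taken here is the one that usually carries the plain name.
miR-106b-5p: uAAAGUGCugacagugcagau
miR-93-5p: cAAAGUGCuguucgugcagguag
miR-17-5p: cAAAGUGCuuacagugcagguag
miR-25-3p: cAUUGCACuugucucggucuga
miR-92a-3p: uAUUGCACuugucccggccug
miR-32-5p: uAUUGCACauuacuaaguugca
The seed AAAGUGC of miR-106b and miR-93 was found in 7 of 1679 mature mouse miRNAs of the table, and the seed AUUGCAC of miR-25 and miR-32 in 6. The members of one seed were not alike outside it: miR-106b and miR-93 differed by 7 single-base edits, and miR-25 and miR-32 by 8. miR-93 differed from miR-17 by 3 edits and miR-25 from miR-92a by 4, so signal of a PCR assay from a close relative cannot be told apart from that of a member in the Ct values.

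The 3 hairpins of the cluster lie on the minus strand of chromosome 5 within 498 bases (GRCm38.p6). Mir106b spans chr5:138165737-138165818, Mir93 chr5:138165523-138165610 and Mir25 chr5:138165321-138165404, with 126 and 118 bases between neighbours, in the order of transcription. All 3 lie inside Mcm7 (chr5:138164583-138172111) on its own strand. Mir32 lies on the minus strand of chromosome 4 (chr4:56895229-56895298), inside Tmem245 (chr4:56876003-56947455), again on its strand. The gene table gives no exons, so whether the hairpins lie in introns was not read from it. Of the 2 promoter windows listed for Mcm7, each from 250 bases before to 50 after a start site, 1 held matches to E2F-type motifs: TTTCGCGC, 16 bases after the start, and TTTCCCGC on the other strand, 165 bases before it. With TTTGGCGC these were the motifs searched, on both strands, and any of the 3 was found in 1.84% of 32851 promoter windows. The window of Tmem245 held none.

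The assays of the cluster came up at lower Ct than that of miR-32. Over the 35 arrays the mean Ct was 22.1 for miR-25, 22.2 for miR-93 and 22.6 for miR-106b, which ranked 53, 54 and 60 among the 376 miRNAs from the lowest Ct. miR-32 had a mean Ct of 27.6 and ranked 148. Each of the 4 gave a Ct on every array. Ranks between assays also depend on primer efficiency, so they order the assays and not the molecules.

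The arrays were run in 3 periods, and the controls were not spread evenly over them. The first period held the 3 controls labelled day 1, 4 of the 5 PTD 1 arrays and all arrays of PTD 3, 7 and 15. The next held 2 controls labelled day 30, the remaining PTD 1 array and all arrays of PTD 30 and 120, and the last held the other 2 controls. The label of a control and its run period therefore cannot be told apart. The liver markers miR-122, miR-192 and miR-194 had mean Ct values of 14.5 to 17.2 and were measured on all arrays. In the controls labelled day 1 the reference RNAs came up at a mean Ct of 21.2 ± 0.14 (SD, n = 3), and in those labelled day 30 at 22.1 ± 0.26 (SD, n = 4), while the median Ct of the 376 miRNAs was 29.0 in both.

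The controls themselves differed in the cluster. mmu-miR-106b had -ΔCt values of -1.34, -1.51 and -1.69 in the controls labelled day 1 and of -0.89, -0.83, -0.82 and -0.49 in those labelled day 30. mmu-miR-93 had -1.22, -1.20 and -1.23 against -0.43, -0.48, -0.14 and -0.05, and mmu-miR-25 had -1.44, -0.87 and -1.44 against 0.05, 0.50, 0.34 and 0.31. For these 3 members no day 1 control reached the lowest day 30 control, as for 47.7% of all miRNAs with a Ct on these arrays. The differences on the log2 scale were 0.76, 0.94 and 1.55, each with an exact permutation p of 0.0286 (two-sided), the smallest that 3 against 4 arrays can give. mmu-miR-32 showed a difference of 0.34 (exact permutation p = 0.514), with -5.29, -6.65 and -6.98 against -5.97, -6.17, -6.42 and -5.29. The difference was general: in limma its median over all 376 was 1.00, and 28.5% of the miRNAs passed p under 0.01 with a fold change above 2, the rule used here for a differentially expressed miRNA (DEM). Among the members only miR-25 was a DEM between the control labels. So were all 3 hepatocyte markers, with a median difference of 1.52, both endothelial markers (1.64), 3 of 6 leukocyte markers (1.07) and 1 of 3 stromal markers (1.07), whose part in the members' values was not tested. Of the 3 erythroid markers none was a DEM there, with a median difference of 0.06. When each array was scaled to the median Ct of its miRNAs instead of the reference RNAs, the differences were -0.15 for miR-106b, 0.04 for miR-93 and -0.56 for miR-32 (exact permutation p of 0.6, 0.886 and 0.486), while miR-25 kept 0.64 (exact permutation p = 0.0286). The comparisons with the controls are therefore also given within a run period and on the median scale.

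**Figure D1:**
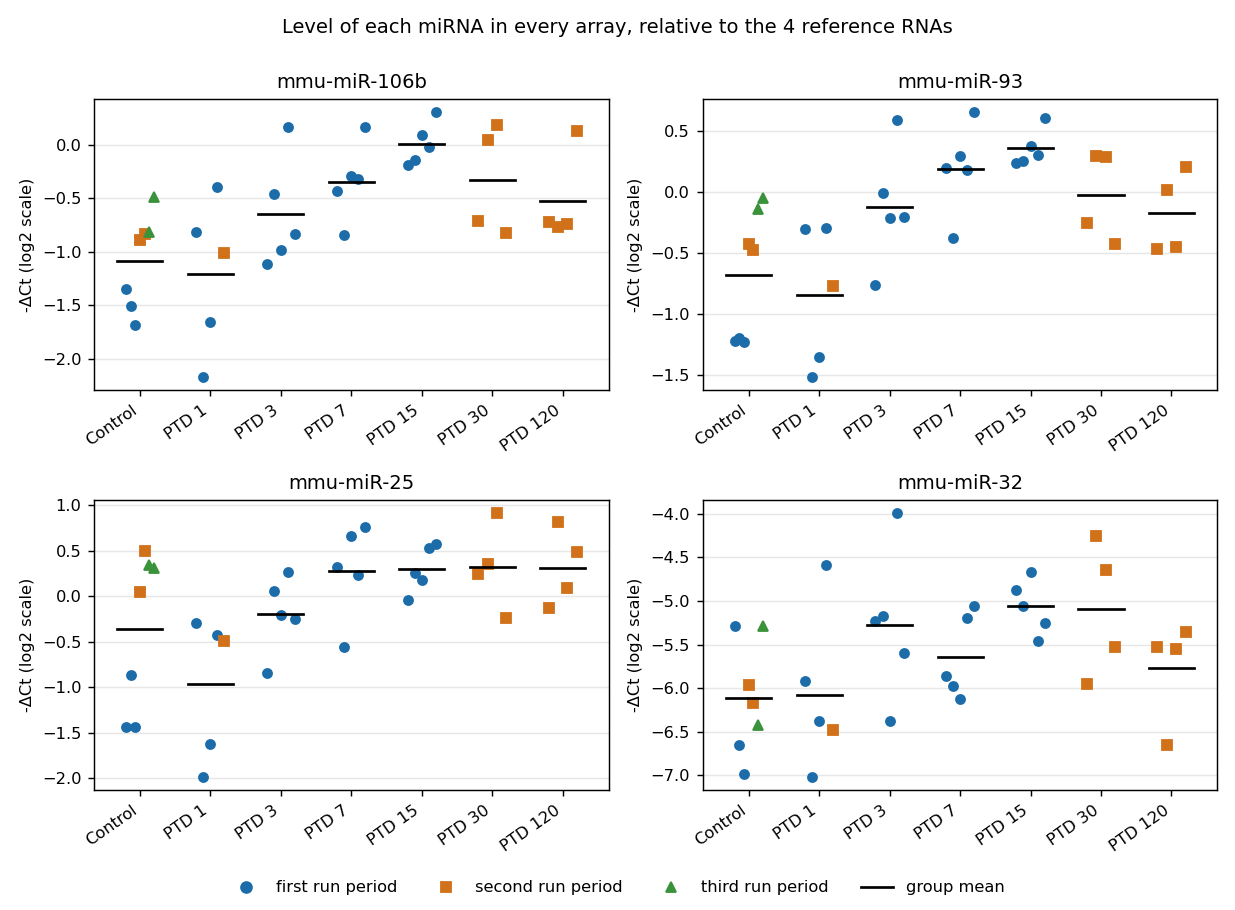
-ΔCt (log2 scale, higher means more RNA) of the 4 members on each of the 35 arrays by group, with run periods as symbols and group means as black bars. The 5 arrays of PTD 15 lie above all 7 controls for miR-106b and miR-93, and the 3 controls of the first run period lie below the other 4 for miR-106b, miR-93 and miR-25.

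miR-106b, the most upstream hairpin of the cluster, was up-regulated at PTD 15. Its -ΔCt was -1.08 ± 0.44 (SD, n = 7) in the controls, and at PTD 15 it was -0.19, -0.14, 0.10, -0.02 and 0.31, so that each of the 5 mice lay above the highest control at -0.49. The log2 fold change of mmu-miR-106b was 1.09 (SE 0.27, adjusted p = 0.0229 in limma over 376 miRNAs), a 2.13-fold increase, with an exact permutation p of 0.00126, the smallest that 5 against 7 arrays can give. At PTD 7 its values were -0.43, -0.84, -0.29, -0.32 and 0.17, of which 4 lay above every control, and the log2 fold change of 0.74 (SE 0.29, adjusted p = 0.139 in limma) did not pass the thresholds. At PTD 1 the values spread from -2.17 to -0.39 and at PTD 3 from -1.11 to 0.17, with log2 fold changes of -0.13 and 0.44. At PTD 30 the values were -0.71, 0.05, 0.19 and -0.82, for a log2 fold change of 0.76. At PTD 120, 3 mice lay between -0.77 and -0.72 and 1 at 0.13, for 0.56. Neither late group passed the thresholds (limma adjusted p = 0.435 and 0.487).

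miR-93, the middle hairpin with the seed of miR-106b, was also up-regulated at PTD 15. The controls of mmu-miR-93 had -ΔCt of -0.68 ± 0.53 (SD, n = 7), and the PTD 15 mice had 0.24, 0.26, 0.38, 0.31 and 0.61, all above the highest control at -0.05. It was a DEM at PTD 15, with a log2 fold change of 1.04 (SE 0.29, adjusted p = 0.0396 in limma) and an exact permutation p of 0.00379. At PTD 7 the values were 0.20, -0.37, 0.30, 0.18 and 0.65, again with 4 of 5 above every control, and the log2 fold change was 0.87 (SE 0.32, adjusted p = 0.112 in limma). The groups of PTD 1, 3, 30 and 120 overlapped the controls, with log2 fold changes of -0.17, 0.56, 0.65 and 0.50 and none past the thresholds.

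miR-25, the last hairpin of the cluster, passed the thresholds in no comparison with the 7 controls. The PTD 15 values of mmu-miR-25 were -0.04, 0.25, 0.18, 0.53 and 0.57, all above every day 1 control, with 2 of the 5 above the highest day 30 control and 1 below the lowest. The log2 fold change was 0.66 (SE 0.40, adjusted p = 0.286 in limma). Its control SD of 0.86, against 0.44 for miR-106b and 0.53 for miR-93, came with the gap between the control labels. The log2 fold changes at PTD 1, 3, 7, 30 and 120 were -0.60, 0.17, 0.65, 0.68 and 0.68, and the group means of PTD 7, 15, 30 and 120 lay between 0.28 and 0.32.

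miR-32, which carries the miR-25 seed from another chromosome, was up-regulated at PTD 15 by the thresholds but not after adjustment. The controls of mmu-miR-32 ranged from -6.98 to -5.29 with a median of -6.17, and PTD 15 gave -4.88, -5.06, -4.66, -5.46 and -5.25, with 4 of 5 mice above every control. The log2 fold change was 1.05 (SE 0.34) with p = 0.00865 and adjusted p = 0.0635 in limma, and the exact permutation p was 0.0126. At PTD 30 the log2 fold change was nearly as large, 1.01 (SE 0.44, adjusted p = 0.435 in limma), from values of -5.95, -4.25, -4.64 and -5.53 that overlapped the controls. On PTD 1, 3, 7 and 120 it was 0.03, 0.84, 0.47 and 0.34, none past the thresholds.

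In all, 3 of the 4 members were DEMs at PTD 15, where 11.4% of the 376 miRNAs were, and no member was one at another time. At an unadjusted p under 0.05 in limma, miR-106b and miR-93 passed at PTD 7, miR-106b and miR-32 at PTD 30 and none at PTD 1, 3 and 120, besides the 3 DEMs of PTD 15. From PTD 1 to PTD 120 in order, 5.05%, 10.4%, 24.5%, 29%, 10.6% and 8.78% of all miRNAs had such a p. The 2 members whose PTD 15 mice all lay above all 7 controls stood beside 7.84% of all miRNAs, and at PTD 7, where no member did so, 2.14% did. Of all miRNAs, DEMs made up 1.33% on PTD 1, 2.13% on PTD 3, 9.84% on PTD 7, 1.6% on PTD 30 and 1.33% on PTD 120. At PTD 15 the array as a whole had a median log2 fold change of 0.36, and relative to it miR-106b stood at 0.73, miR-32 at 0.69, miR-93 at 0.68 and miR-25 at 0.30. At PTD 30 and 120 that median was 0.54 and 0.46, and relative to it the members ranged from 0.12 to 0.48 at PTD 30 and from -0.13 to 0.22 at PTD 120. In the order of the group means, from lowest to highest, no neighbouring groups differed for any member (exact permutation p of at least 0.142, 24 comparisons). Neighbours in this order are the closest groups by construction, so these tests do not bear on groups further apart. PTD 15 was the highest group for miR-106b, miR-93 and miR-32.

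The PTD 15 calls rested on few arrays. With each of the 12 arrays left out in turn, miR-106b kept its call in 11 cases, miR-93 in 8 and miR-32 in 3. The call of miR-32 held only without replicate 1 of the controls labelled day 1, replicate 4 of those labelled day 30 or replicate 4 of PTD 15, and was lost in the other 9 cases. That of miR-93 was lost without any 1 of the 3 controls labelled day 1 or without replicate 5 of PTD 15. Without replicate 3 of the controls labelled day 1 no member passed, and without replicate 2 of these controls or replicate 5 of PTD 15 only miR-106b did. The log2 fold changes over these cases lay between 0.99 and 1.19 for miR-106b, 0.94 and 1.14 for miR-93 and 0.90 and 1.18 for miR-32. With U6 left out of the reference RNAs, with only the day 30 controls, or with the difference of the reverse transcription control wells as a covariate, 0 members passed. The log2 fold changes of miR-106b, miR-93 and miR-32 were then 0.91, 0.85 and 0.86 without U6, 0.77, 0.63 and 0.90 against the day 30 controls, and 0.92, 0.82 and 0.95 with the covariate. In these 3 settings 11.4%, 9.04% and 10.4% of all miRNAs were DEMs. All 5 PTD 15 mice lay above each of the 4 day 30 controls for miR-106b and miR-93 (exact permutation p = 0.00794 for both, the smallest that 5 against 4 arrays can give), as for 8.38% of all miRNAs. The raw Ct also moved less than -ΔCt: at PTD 15 the Ct was lower than in the controls by 0.32 cycles for miR-106b, 0.26 for miR-93 and 0.27 for miR-32, and the difference for miR-25, control minus PTD 15, was -0.11, a higher Ct after ENU. At the same time the mean reference Ct was 0.77 cycles higher and the median Ct of all miRNAs 0.81 cycles higher. In whole liver, fewer cells of a type and less RNA per cell cannot be told apart.

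Within the first run period the cluster rose as a whole. Against the 3 controls of that period, the log2 fold changes at PTD 15 were 1.53 (SE 0.25, adjusted p = 0.00359) for mmu-miR-106b, 1.57 (SE 0.23, adjusted p = 0.00312) for mmu-miR-93 and 1.55 (SE 0.28, adjusted p = 0.00479) for mmu-miR-25 in limma. At PTD 7 they were 1.17 (adjusted p = 0.0157), 1.41 (adjusted p = 0.00767) and 1.53 (adjusted p = 0.0103) in limma. For each of these 3 members, all 5 mice of PTD 7 and all 5 of PTD 15 lay above the 3 controls, as for 35.6% of all miRNAs at PTD 7 and 44.5% at PTD 15. The exact permutation p was 0.0179 in each case, the smallest that 5 against 3 arrays can give. mmu-miR-32 had 1.24 at PTD 15 (p = 0.0143, adjusted p = 0.0309 in limma) and 0.66 at PTD 7 (adjusted p = 0.23 in limma) and was a DEM at neither. These counts of 3 of 4 members stand beside 40.4% of all miRNAs at PTD 15 and 33% at PTD 7, with medians over all miRNAs of 1.05 and 0.84. At PTD 3 the members had 0.87 to 1.10 and at PTD 1 0.16 to 0.35, with no DEM among them, beside 7.98% and 1.06% of all miRNAs, although the 3 cluster members, like 26.6% of all miRNAs, had an unadjusted p under 0.05 in limma at PTD 3. Against the 2 controls of the second run period, PTD 30 gave 0.54, 0.43, 0.05 and 0.98 for miR-106b, miR-93, miR-25 and miR-32, and PTD 120 gave 0.34, 0.28, 0.04 and 0.30. No member was a DEM there, where 0.798% and 0% of all miRNAs were.

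When arrays were scaled by their median Ct, values were higher at PTD 1, 3 and 7 and lower at PTD 30 and 120 than with the reference RNAs. At PTD 7 the mean reference Ct was 0.50 cycles above that of the controls and the median Ct 0.80 cycles above. At PTD 3 the log2 fold changes against the 7 controls were 0.73 for miR-106b (exact permutation p = 0.0101), 0.85 for miR-93 (exact permutation p = 0.00758) and 0.47 for miR-25 (exact permutation p = 0.0985), where the reference RNAs gave 0.44, 0.56 and 0.17. At PTD 7 they were 1.04 for miR-106b, 1.17 for miR-93 and 0.95 for miR-25, and for all 3 every PTD 7 mouse lay above every control (exact permutation p of 0.00253, 0.00126 and 0.00126), as for 17.2% of all miRNAs. At PTD 15 they were 1.12, 1.07 and 0.69, again without overlap (exact permutation p of 0.00253, 0.00126 and 0.00379), as for 9.73% of all miRNAs. At PTD 1 they were 0.24, 0.20 and -0.23 (exact permutation p of 0.321 to 0.437). At PTD 30 and 120 the cluster members lay between 0.08 and 0.35 (exact permutation p of 0.173 to 0.609). For miR-32 the values from the earliest to the latest PTD were 0.40, 1.13, 0.77, 1.08, 0.61 and -0.08, with exact permutation p of 0.0379 at PTD 3, 0.0429 at PTD 15 and at least 0.104 at the others. Its value at PTD 30 was 1.01 with the reference RNAs, and at PTD 120 the sign turned.

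**Figure D2:**
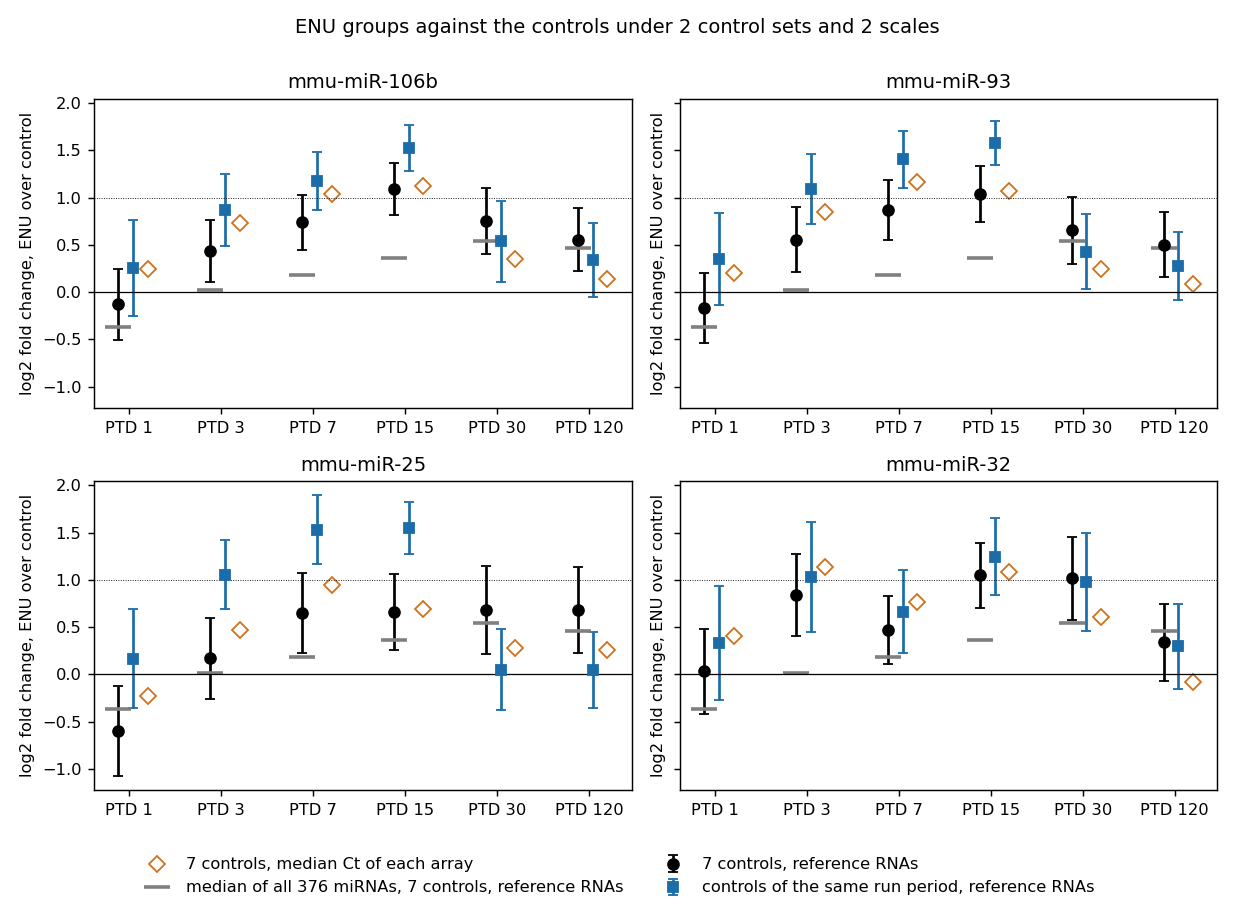
Log2 fold change of each member, ENU over control, at each PTD: black circles against the 7 controls and blue squares against the controls run in that period (limma, bars are SE), open diamonds on the scale of the median Ct of each array, and grey bars for the median of all 376 miRNAs. With the reference RNAs PTD 15 is highest for each member, except miR-25 against the 7 controls, which is at 0.68 at PTD 30 and 120, and on the median scale the highest values are at PTD 15 for miR-106b, PTD 7 for miR-93 and miR-25 and PTD 3 for miR-32.

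The ENU groups were also compared without any control. PTD 1 and PTD 15 were taken because the members differed most between these groups in earlier results of these data. The p-values of this pair come from a comparison picked on the same data and give no independent support. From PTD 1 to PTD 15, mmu-miR-106b was higher by 1.22 on the log2 scale (SE 0.39, adjusted p = 0.0356), mmu-miR-93 by 1.21 (SE 0.36, adjusted p = 0.0342) and mmu-miR-25 by 1.26 (SE 0.41, adjusted p = 0.038) in limma, and all 3 were DEMs. mmu-miR-32 was higher by 1.01 (SE 0.44, adjusted p = 0.0873 in limma) and did not pass. Of all miRNAs 23.9% passed, and the median over all was 0.81. Among the cell markers 2 of 6 leukocyte and 1 of 2 endothelial miRNAs passed, with list medians of 1.22 and 1.39. None of the 3 hepatocyte, 3 erythroid and 3 stromal miRNAs did, with medians of 1.05, 0.87 and 0.95. The part of these cells in the members' differences was not tested. The 3 calls of members fell to 0 without replicate 3 of PTD 1 or without replicate 2, 3, 4 or 5 of PTD 15. They fell to 1 without replicate 2 of PTD 1 or replicate 1 of PTD 15. On the median scale they fell to 0, where the members' differences were 0.88, 0.87 and 0.92 and 18.4% of all miRNAs passed. Within the first run period, which leaves out 1 PTD 1 array, the differences of these members were 1.27, 1.22 and 1.38, and 3 members passed, beside 26.6% of all miRNAs. An F test across the 6 ENU groups in limma gave adjusted p = 0.0471 for mmu-miR-106b, 0.0216 for mmu-miR-93, 0.0167 for mmu-miR-25 and 0.22 for mmu-miR-32, beside 50% of all miRNAs with an adjusted p under 0.05.

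The ratio of 2 miRNAs on one array needs no reference RNA. miR-106b and miR-93 kept nearly the same ratio on all arrays: miR-106b stood below miR-93 by 0.41 ± 0.18 (SD, n = 35) on the log2 scale, and 0.0339% of the 64980 pairs of miRNAs had a smaller SD. The median SD over all pairs was 1.09. Pairs of like Ct were not compared apart, and the mean Ct was 22.6 for miR-106b, 22.2 for miR-93 and 27.6 for miR-32. The group means of this ratio lay between -0.53 and -0.30. The SD was 0.33 for miR-93 with miR-25 and 0.38 for miR-106b with miR-25. miR-25 shifted against its neighbours between the control labels. The log2 ratio of miR-106b to miR-25 was -0.27 ± 0.37 (SD, n = 3) in the controls labelled day 1 and -1.06 ± 0.24 (SD, n = 4) in those labelled day 30, and the ranges did not overlap. The ENU groups had means of -0.24, -0.45, -0.62, -0.29, -0.64 and -0.84 from the earliest to the latest PTD. miR-32 was looser, with an SD of 0.48 against miR-106b and of 0.78 against miR-25, its seed partner.

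**Figure D3:**
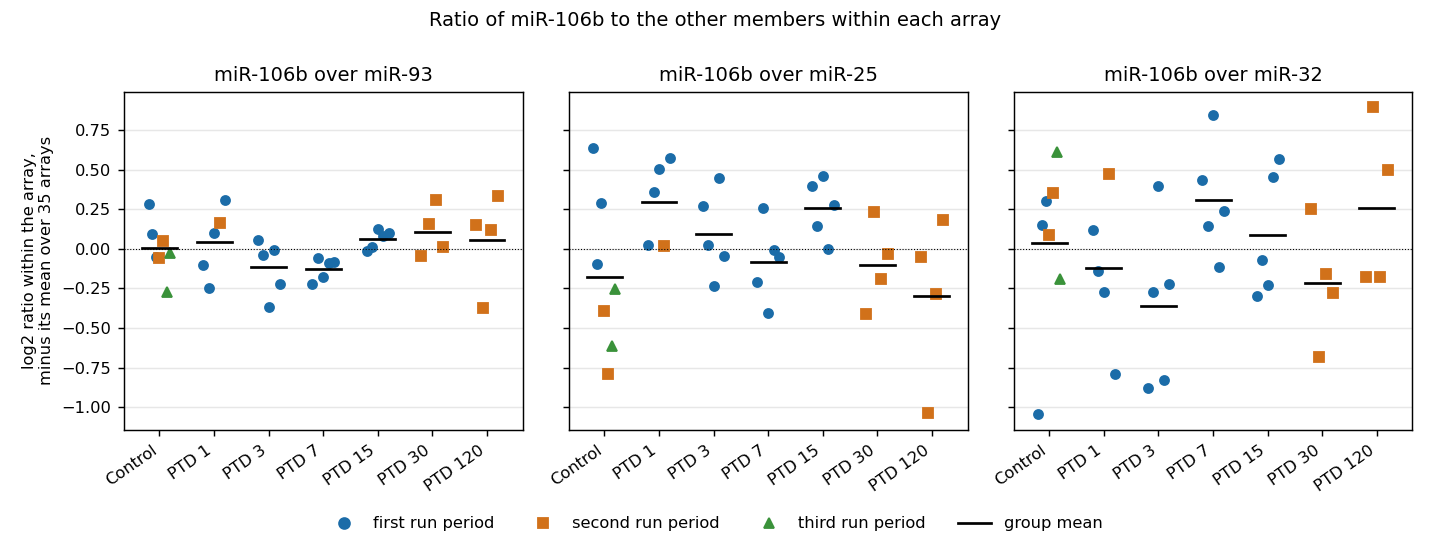
Log2 ratio of miR-106b to miR-93, miR-25 and miR-32 within each of the 35 arrays, centred on its mean over all arrays, by group, with run periods as symbols and group means as black bars. Points spread least for miR-93 (SD 0.18), more for miR-25 (SD 0.38) and most for miR-32 (SD 0.48), and for miR-25 the 4 controls of the later run periods lie lowest among the controls.

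Across the 35 arrays, which share the reference RNAs as denominator, the Pearson correlation of -ΔCt was 0.95 for miR-106b with miR-93, 0.89 for miR-93 with miR-25 and 0.84 for miR-106b with miR-25. miR-32 had 0.77 with miR-106b, 0.64 with miR-93 and 0.43 with miR-25, beside a median of 0.32 over all pairs of miRNAs. After the group means were removed and on the median scale, where that median was 0.06, miR-106b and miR-93 had 0.88, miR-106b and miR-32 0.76, miR-93 and miR-25 0.70, miR-106b and miR-25 0.56, miR-93 and miR-32 0.52, and miR-25 and miR-32 0.06. On that scale the pair of miR-106b with miR-32, from different chromosomes, stood above both pairs with miR-25. With the reference RNAs and the group means kept, the miRNAs most like miR-106b were miR-301a (r = 0.97), miR-497 (0.95) and miR-93. Those most like miR-93 were miR-106b, miR-17 (0.93) and miR-18a (0.93). The miRNAs most like miR-25 were miR-16 (0.96), miR-20a (0.96) and miR-126-3p (0.95), with miR-93 in place 42 and miR-106b in place 60 of 360. Those most like miR-32 were miR-219 (0.85), miR-338-3p (0.85) and miR-107 (0.84). On this scale miR-106b and miR-93 were thus among each other's 3 nearest miRNAs, and miR-25 was nearer to many others than to its neighbours.

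The 10 related miRNAs of the paralogous clusters and seed families had lower log2 fold changes than miR-106b, miR-93 and miR-32 at PTD 15 against the 7 controls, a difference that was not tested. The remaining member of the cluster, miR-25, did not stand above them: its 0.66 lay below their median of 0.70. None of the 10 was a DEM against the 7 controls at any time. At PTD 15 all 10 had log2 fold changes above 0, with a median of 0.70 and a range of 0.04 to 0.87, where 66.8% of all miRNAs were above 0. The 4 with the seed of miR-106b and miR-93 lay close together: miR-17 had 0.71, miR-20a 0.71, miR-20b 0.72 and miR-106a 0.70. Of the 3 with the seed of miR-25 and miR-32, miR-92a had 0.87 (adjusted p = 0.0635 in limma), miR-363 0.58 and miR-92b 0.04. Of the other 3, miR-18a had 0.86 (adjusted p = 0.0635 in limma), miR-19a 0.58 and miR-19b 0.37. Within the first run period 7 of the 10 were DEMs at PTD 15, beside 40.4% of all miRNAs, and 6 at PTD 7, beside 33%. There the order differed: miR-20b (1.48), miR-20a (1.33), miR-18a (1.31), miR-363 (1.27) and miR-92a (1.25) had higher values at PTD 15 than miR-32 (1.24). From PTD 1 to PTD 15 miR-20b (1.25) and miR-18a (1.16) were DEMs, beside 23.9% of all miRNAs. miR-17, miR-20a, miR-20b and miR-106a differ from each other by 1 to 3 edits, so their values may not be independent.

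**Figure D4:**
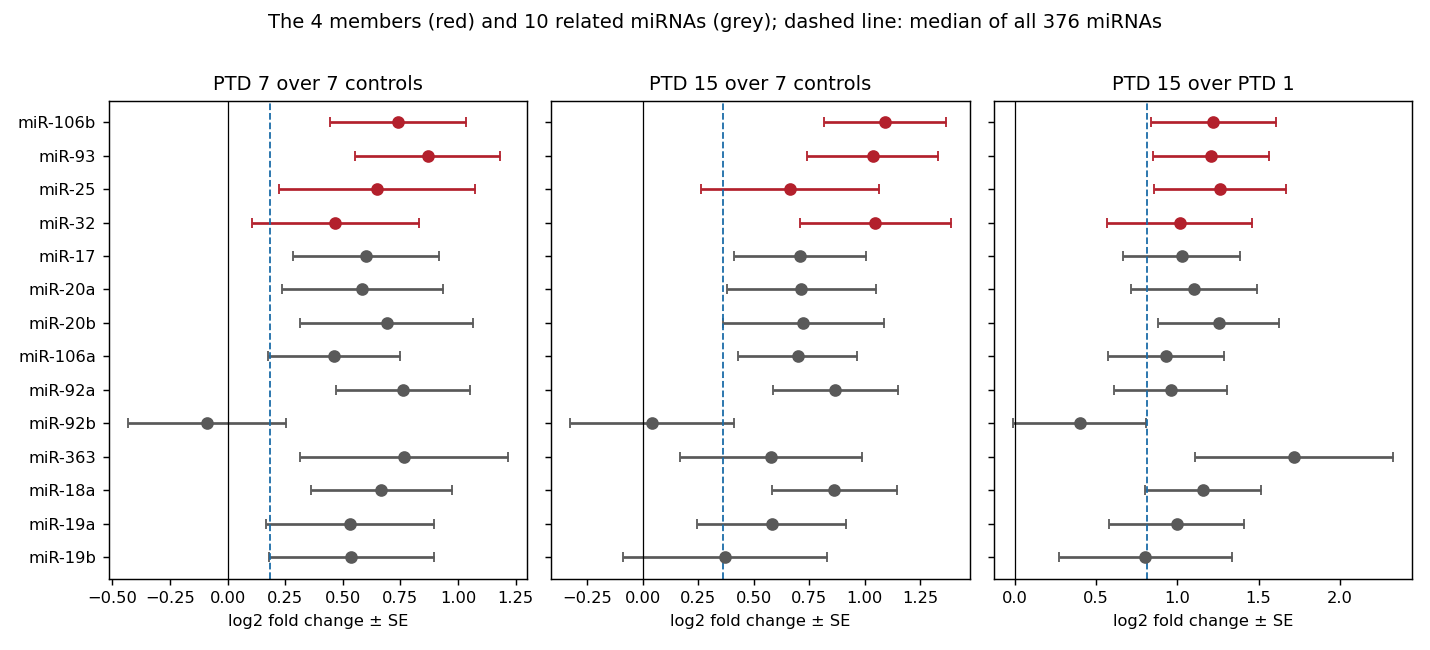
Log2 fold changes ± SE from limma for the 4 members (red) and the 10 related miRNAs (grey) at PTD 7 and PTD 15 against the 7 controls and at PTD 15 against PTD 1, with the median of all 376 miRNAs as a dashed line. At PTD 15 against the 7 controls miR-106b, miR-93 and miR-32 lie above 1.00, miR-25 at 0.66 and the related miRNAs at 0.87 or below.

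At PTD 15, 2 of 3 markers of red blood cells rose as well. The 3 erythroid miRNAs miR-144, miR-451 and miR-486 had a mean -ΔCt of -3.58 to -3.05 in the 7 controls and of -2.99 to -1.62 in the PTD 15 mice, with no overlap. miR-144 (log2 fold change 1.52, adjusted p = 0.0162 in limma) and miR-451 (1.04, adjusted p = 0.0635 in limma) were DEMs at PTD 15, beside 11.4% of all miRNAs. None of the 6 leukocyte, 2 endothelial, 3 stromal and 3 hepatocyte miRNAs was a DEM there, with medians of 0.03, 0.62, 0.60 and 0.20. Within the first run period both endothelial, 2 erythroid, 2 stromal and 1 hepatocyte miRNA and no leukocyte miRNA were DEMs at PTD 15, beside 40.4% of all miRNAs. The part of these cells in the members' values was not tested. For scale, the 3 miRNAs of the p53-responsive miR-34 family had log2 fold changes of 2.07 to 2.78 at PTD 15 and their difference between the control labels had a median of 0.12, against 0.85 for the members.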

How the data were processed

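Small RNA of 35 livers was measured on SYBR Green real-time PCR arrays. The authors deposited the Ct of each well, a cycle number, as calculated with SDS 2.3 at a fixed threshold of 0.15 over 40 cycles, without normalization; no sequencing depth applies, and 4 to 7 arrays per group limit the precision. Wells were named from the layout of the array. The 15 wells without a Ct, on 11 arrays and none of a member, were left missing. -ΔCt was computed from the 4 reference RNAs, as in the study's methods. Each ENU group was compared with the 7 controls in limma 3.58.1 (R 4.3.3), with Benjamini-Hochberg adjustment over 376 miRNAs. The thresholds were those of the methods, p under 0.01 unadjusted and a fold change above 2. Exact permutation tests were two-sided over all splits of the arrays. Tests were checked on simulated data. Python 3.11.15, numpy 2.4.6, scipy 1.17.1, pandas 2.3.3 and matplotlib 3.10.9 were used.

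The sample labels put 3 controls at day 1 and 4 at day 30, the reverse of the methods text, so all 7 were taken as 1 group and their day is given as labelled. Run periods came from the run record of each array. The miRNAs named are the 4 members, the 10 related miRNAs, the 3 most correlated with each member, the miR-34 family and the cell markers. For the correlations, each member was ranked against the 360 other miRNAs with a Ct on every array. Members, lists and the comparison of PTD 15 with PTD 1 were chosen with earlier results of these data known. Alternatives were another scaling, smaller sets of reference RNAs, other treatment of missing or high Ct, other controls, fits and thresholds, run periods and arrays left out in turn. The combination of median scaling with 1 run period, and the comparison of PTD 15 with PTD 1 within a run period, were added after seeing the data.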

Additional observations from a re-analysis of the deposited data

Results flagged for a closer look

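At PTD 120, replicate 4 had a -ΔCt of 0.13 for miR-106b, far above the other 3 mice, and replicate 2 had -6.65 for miR-32, far below the others. These were 2 of 28 sets of a member and a group, and chance gives about 1 in 20 such sets.

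Between PTD 1 and PTD 15, 3 members passed the thresholds in limma, with differences of 1.22 for miR-106b, 1.21 for miR-93 and 1.26 for miR-25 on the log2 scale. So did 23.9% of all miRNAs, among them 2 of 6 leukocyte and 1 of 2 endothelial markers, whose part was not tested. None of the 3 members passed on the median scale, or without replicate 3 of PTD 1 or any 1 of replicates 2, 3, 4 and 5 of PTD 15. This pair of groups was picked with earlier results of these data known.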

How the results depend on the processing

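Over the 468 settings of the single fold changes other than arrays left out, 399 kept the direction and the side of the thresholds, 24 lost and 24 gained the call, and 21 turned the sign. Most of these fold changes had no call in the main fit, so they had none to lose. Settings that change only a threshold keep the fold change. At PTD 3, 7 and 15 the day 1 controls are also those of the run period, so the settings are not independent. At PTD 15, 0 members passed with U6 left out, with only the day 30 controls, with the covariate of the control wells or with the replicate block, against 3, while 11.4%, 9.04%, 10.4% and 7.18% of all miRNAs passed. In these settings the log2 fold changes lay between 0.77 and 0.98 for miR-106b, 0.63 and 0.93 for miR-93 and 0.86 and 1.07 for miR-32. At PTD 7 the count went from 0 to 2 on the median scale (18.1% of all miRNAs), to 3 with only the day 1 controls or within the run period (33%) or with the run period as a block (38%), and to 2 on the median scale within the run period (29.8%). With the run period as a block it was 2 at PTD 3 (13.3%). With only the day 1 controls PTD 30 had 3, beside 37.5% of all miRNAs, and PTD 120 had 2, beside 27.9%. From PTD 1 to PTD 15 it was 0 on the median scale (18.4%). Arrays left out in turn gave 0 to 3 members at PTD 15 and 0 to 4 from PTD 1 to PTD 15. At PTD 7 they gave 0 to 1, where miR-93 passed without replicate 2 of that group, and the other PTDs stayed at 0. The share of all miRNAs was not counted with arrays left out. The F test gave 3 members with the replicate block and on the median scale and 2 within the first run period. The share of all miRNAs was counted only for the main F test, where it was 50%. With the methods' t-test 3 members passed at PTD 15, beside 10.1% of all miRNAs, and 0 at the other PTDs, beside 0.266% to 8.24%. After Benjamini-Hochberg adjustment 2 of the 3, miR-106b and miR-93, stayed under 0.05. The cause of these changes was not tested.

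At PTD 1 the sign turned for miR-106b on the median scale (0.24), with the day 1 controls (0.30), with the run period as a block (0.14), within the run period (0.26) and with the covariate (0.0187). It turned for miR-93 with 0.20, 0.37, 0.16, 0.35 and 0.0099 in the same order and 0.0839 on the median scale within the run period, and for miR-25 with 0.28 for the day 1 controls and 0.16 within the run period. For miR-32 it turned without snoRNA142 (-0.10), with the day 30 controls (-0.11) and with the replicate block (-0.39). With the day 30 controls the values of miR-25 for PTD 3, 7 and 15 were -0.49, -0.016 and -0.000497. Without snoRNA142 miR-25 had -0.00166 at PTD 3. miR-32 at PTD 120 had -0.0821 on the median scale. Arrays left out gave -0.33 to 0.11 for miR-106b and -0.34 to 0.27 for miR-32 at PTD 1, and -0.0094 to 0.33 for miR-25 at PTD 3.

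The replicate numbers were used only as a block. Deviations of same-numbered arrays from their group means correlated at -0.30 to 0.52. Arrays of different numbers were not compared in this way, so whether same-numbered arrays share more than a number was not tested.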
